A study of Equus caballus with 26 samples.

Results

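The genes described here encode the 3 chains of complement C1q (C1QA, C1QB and C1QC) and 3 scavenger receptors (MARCO, MSR1 and CD36), 6 of the 24415 gene names on an equine expression array. They were chosen from earlier results of the same arrays, by their whole-blood levels before (T0) and after (T1) an endurance ride and the difference between both, so that their T1 against T0 values are given as a description and were not tested. C1QA, C1QB, C1QC and MARCO were found by the name of their probe, MSR1 and CD36 by the gene name in the array annotation, and the brightest probe of each gene was used. Whole blood came from pure-bred or half-bred Arabian horses, given 1 common breed label, that took part in endurance rides of 160 km, and total RNA of 26 samples from 23 horses was hybridised in 1 colour. The training set held 3 geldings (horses 2, 32 and 41) sampled at rest at T0 and again at the end of the ride at T1. The validation set held 7 horses (3 females and 4 geldings) sampled at T0 and 13 other horses (3 females and 10 geldings) sampled at T1. No horse of the validation set was measured at both times, so that in this set the time point and the animal cannot be told apart. The study held more horses in both sets than were analysed here. By its methods all its validation horses sampled at T1 completed the ride, whereas many of those sampled at T0 were later stopped at a veterinary check. Outcomes of single horses were not used here, and the groups may differ in more than time. No unridden control group was analysed here, and the hours between the draws are part of every T1 against T0 difference.

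C1q is the recognition molecule of the classical complement pathway, a bundle of trimers that each join an A, a B and a C chain, and it binds antibody bound to antigen, pentraxins and the surface of dying cells. Unlike most complement proteins, which the liver makes, C1q is made mainly by macrophages, immature dendritic cells and related myeloid cells. MARCO and MSR1 (scavenger receptor A) are trimeric membrane proteins of macrophages with collagen-like stalks that bind bacteria, modified lipoproteins and particles, while CD36 is a class B scavenger receptor and fatty acid transporter of monocytes, platelets and other cells.

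The probes are 60 bases long, and those of the C1q chains and MARCO are printed because the largest T1 against T0 differences among the members rest on a single probe each. On the EquCab1 build named in the file headers, the probes of C1QB (chr2:30462581-30462640), C1QC (chr2:30472965-30473024) and C1QA (chr2:30480554-30480613) lay within 18033 bases of chromosome 2, and that of MARCO lay at chr18:586013-586072, all listed on the minus strand. The probe sequences are printed 5′ to 3′ as deposited, and the capitals mark the longest run of bases shared by the C1QB and C1QC probes.
C1QA: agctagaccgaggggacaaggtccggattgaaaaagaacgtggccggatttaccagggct
C1QB: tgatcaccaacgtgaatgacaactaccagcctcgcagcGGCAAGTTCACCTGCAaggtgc
C1QC: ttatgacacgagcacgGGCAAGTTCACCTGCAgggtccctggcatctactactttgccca
MARCO: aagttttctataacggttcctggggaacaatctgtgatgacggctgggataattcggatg
The shared run was 16 bases long, and no other pair of the members' probes shared more than 6 bases in a row. Binding of one chain's transcript to the other chain's probe was not tested. The MSR1 probe lay at chr27:18708914-18708973 and the CD36 probe at chr4:672965-673024, and whether these stretches are exonic, intronic or untranslated was not given in the sources used here.

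A level is the log2 processed signal of a probe minus the 75th percentile of its array, so that a level of 0 is the brightness of the 75th percentile probe, and levels were not compared between genes. Between 60.4% and 75.4% of probes were well above background per array. The library labelled T0 of validation horse 47 stood apart from the other T0 libraries. Over the 17402 genes tested in the validation set, its levels correlated at 0.988 with the mean of the T1 horses and at 0.969 with the mean of the other T0 horses, whereas the other 6 T0 libraries correlated at 0.943 to 0.959 with the T1 mean and at 0.980 to 0.988 with the T0 mean. The label was kept. The members' differences between the validation group means are given with and without this library. So are other values of the members that it moved by over 1.5 times. All 431 saturated spots were on a single array, that of horse 34 at T1, whose file header records 1 scan pass. In whole blood, fewer cells of a type and less RNA per cell cannot be told apart.

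All 3 C1q chains were over-expressed at T1 in each training horse, by 18.8 times or more. C1QA had levels of -3.69, -3.89 and -2.91 in horses 2, 32 and 41 at T0 and of 2.82, 2.86 and 2.30 in the same horses at T1. C1QB had levels of -3.92, -4.06 and -3.09 at T0 and of 0.93, 1.46 and 1.14 at T1. C1QC had levels of -4.21, -4.78 and -4.02 at T0 and of 0.23, 0.59 and 0.48 at T1. For each chain every T0 level of the training horses was far below 0 and every T1 level above it, with no overlap. The paired T1 minus T0 difference was 6.15 ± 0.38 log2 for C1QA (SE of the fit, 3 horses), a 71.2-fold change, against 4.87 ± 0.36 for C1QB and 4.77 ± 0.34 for C1QC. Horse 41 had the smallest difference for C1QA and C1QB, and horse 2 for C1QC.

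The chains were also higher at T1 in the validation set, with a wider spread between horses. C1QA ran from -4.37 to 1.29 at T0 (median -2.73, 7 horses) and from 0.46 to 4.14 at T1 (median 2.10, 13 horses). C1QB ran from -5.04 to -0.11 at T0 (median -3.85) and from -1.66 to 2.09 at T1 (median 0.47). C1QC ran from -4.84 to -0.94 at T0 (median -3.93) and from -2.22 to 1.49 at T1 (median -0.24). The groups overlapped for each chain through horse 47, whose T0 levels were the highest of the T0 group and lay inside the range of the T1 horses. Without horse 47 the highest T0 levels were -1.81 for C1QA, -2.78 for C1QB and -3.81 for C1QC, and no T0 horse reached any T1 horse. Horse 55 had the highest level of all 3 chains at T1, while the lowest C1QA was in horse 8 and the lowest C1QB and C1QC were in horse 21. The difference between the group means was 4.36 ± 0.58 log2 for C1QA (20.5-fold), 3.64 ± 0.55 for C1QB (12.5-fold) and 3.44 ± 0.49 for C1QC (10.8-fold). Without horse 47 these differences were 4.94 ± 0.47, 4.16 ± 0.46 and 3.90 ± 0.42 log2, or 30.8-fold, 17.9-fold and 14.9-fold.

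**Figure D1:**
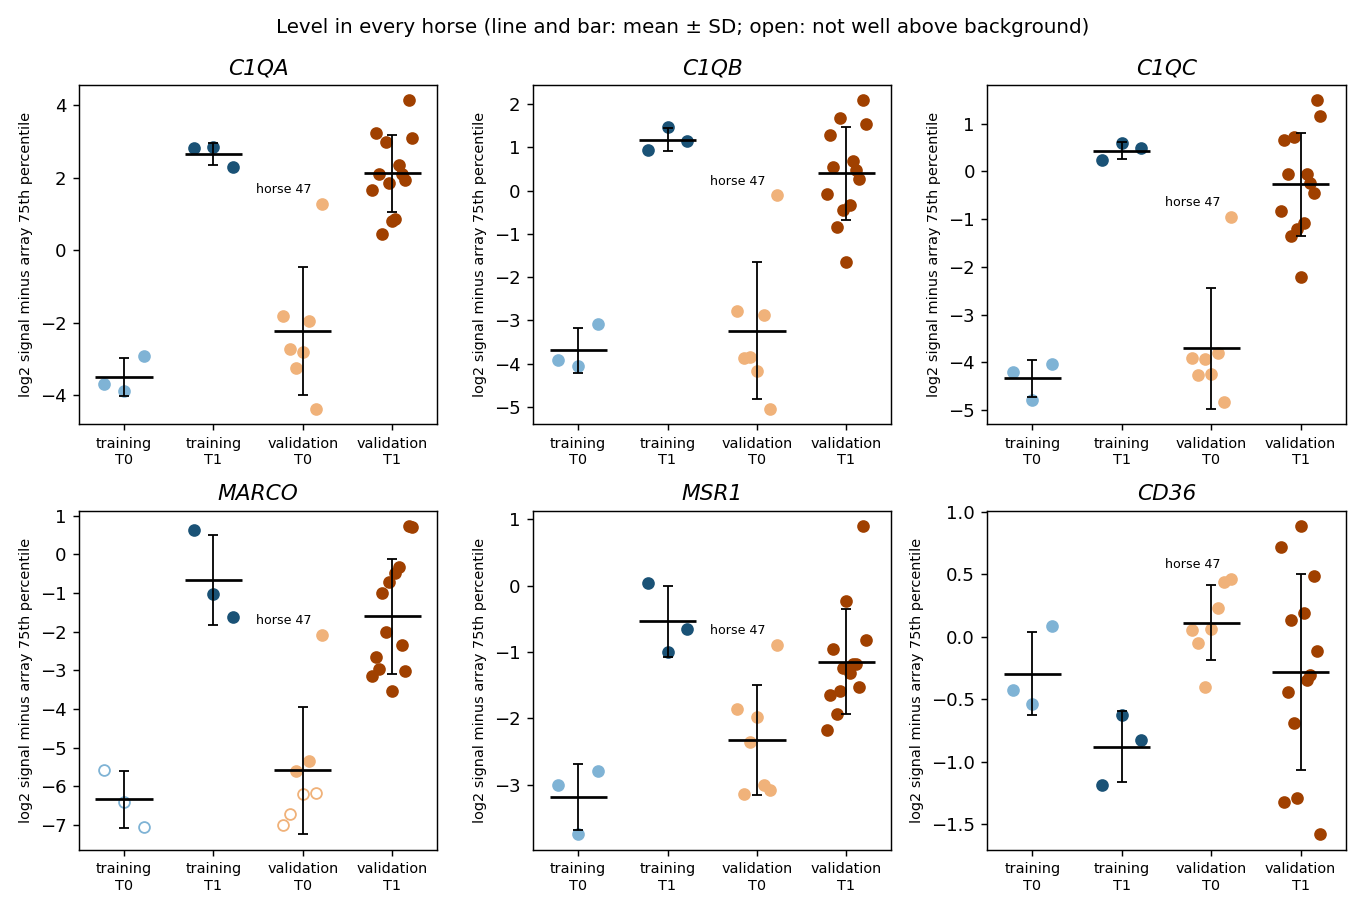
Level of each of the 6 genes on each array (log2 units relative to the 75th percentile of the array, vertical axis) in the 4 groups (horizontal axis), with 1 point per horse, a line at the mean and a bar of 1 SD, open points marking probes not well above background. The C1q chains, MARCO and MSR1 sit higher at T1 than at T0 in the training horses, the T0 point of horse 47 lies among the T1 points, and CD36 shows wide overlap in the validation set.

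MARCO, which binds bacteria and particles on macrophages, went from a signal near background at T0 to a measured one on all 16 T1 arrays. Its probe was not well above background in any of the 3 training horses at T0, where the levels were -5.57, -6.40 and -7.06 in horses 2, 32 and 41, and reached 0.64, -1.02 and -1.62 at T1. It would not have passed the filter on dim probes in either set without its T1 arrays. Each T0 level was then set no lower than the lowest signal of any probe well above background on its array. With this floor MARCO was 42.9-fold higher at T1 in this set. The floor is not a detection limit of the MARCO probe, so that this fold is not a lower bound. It holds for the processed signal alone, and the difference was 2.47 log2 with normexp background correction and 2.56 log2 with the deposited log2 table. In the validation set the probe was well above background in horses 15, 29 and 47 of the 7 at T0, with levels from -7.01 to -2.08 (median -6.18), and ran from -3.55 to 0.73 at T1 (median -2.02). The T0 level of horse 47 was the only one inside the T1 range, and without it the highest T0 level was -5.34. The difference of the means was 3.99 ± 0.67 log2 as measured and 4.57 ± 0.59 without horse 47, but 4 of the T0 arrays held a signal not well above background. With the same floor, again no lower bound, MARCO was 12.7-fold higher at T1, and 18.4-fold higher without horse 47. MARCO had the widest spread of the members among the T1 horses, with an SD of 1.49 log2 (n = 13), and horses 55 and 62 were the highest.

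MSR1, the type A scavenger receptor, was also higher at T1, by a smaller margin. Its levels in horses 2, 32 and 41 were -3.01, -3.75 and -2.80 at T0 and 0.04, -1.01 and -0.65 at T1, a difference of 2.65 ± 0.33 log2 (6.26-fold), with no overlap. In the validation set MSR1 ran from -3.14 to -0.89 at T0 (median -2.36) and from -2.18 to 0.90 at T1 (median -1.24), and the groups overlapped with or without horse 47. The difference of the means was 1.18 ± 0.35 log2 (2.27-fold), and 1.43 ± 0.34 without horse 47. Horse 55 was again the highest at T1, and horse 21, the lowest for C1QB, C1QC and MARCO, was the second highest for MSR1.

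CD36, the fatty acid translocase of monocytes and platelets, did not share this pattern. Its levels in horses 2, 32 and 41 were -0.43, -0.54 and 0.08 at T0 and -1.19, -0.62 and -0.83 at T1, lower at T1 in each horse, by 0.08 log2 in horse 32 and by 0.76 and 0.91 log2 in horses 2 and 41. In the validation set CD36 ran from -0.40 to 0.46 at T0 (median 0.06) and from -1.58 to 0.88 at T1 (median -0.31). The T1 horses lay on both sides of the T0 range, with an SD of 0.78 log2 at T1 (n = 13) against 0.30 at T0 (n = 7). The difference of the means was -0.40 ± 0.29 log2 in the validation set, -0.34 ± 0.31 without horse 47, and -0.58 ± 0.33 in the training set. The array held 2 more CD36 probes, and they followed the brightest one closely over the 26 arrays, with Pearson correlations of 0.984 to 0.991 between the 3 probes. Their T1 minus T0 differences were -0.39 and -0.45 log2 in the validation set and -0.61 and -0.74 log2 in the training set.

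Every T1 array lay above every T0 array for 5 of the 6 members in the training set, where this held for 17.6% of the 17489 genes tested, for 0 of 6 in the validation set (1.44% of 17402 genes), and for 4 of 6 in the validation set without horse 47 (6.57%). The members were chosen on these differences, and nothing is read from the counts. The 5 scan days that held both T0 and T1 validation horses gave differences of 2.58 to 6.91 log2 for C1QA, 1.22 to 6.16 for C1QB, 1.40 to 5.17 for C1QC, 1.79 to 3.89 for MARCO, 0.39 to 2.78 for MSR1 and -1.50 to 0.65 for CD36. Of the 3 slides that held both, the one with horse 47 gave differences of 0.57 log2 for C1QA, -0.34 for C1QB, -0.26 for C1QC and -0.36 for MSR1, and both others gave 4.77 and 5.12 for C1QA. The size of the differences depended on the background correction, and with normexp correction and quantile normalization the validation difference was 3.40 log2 for C1QA, 2.27 for C1QB, 2.09 for C1QC and 1.68 for MARCO.

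**Figure D2:**
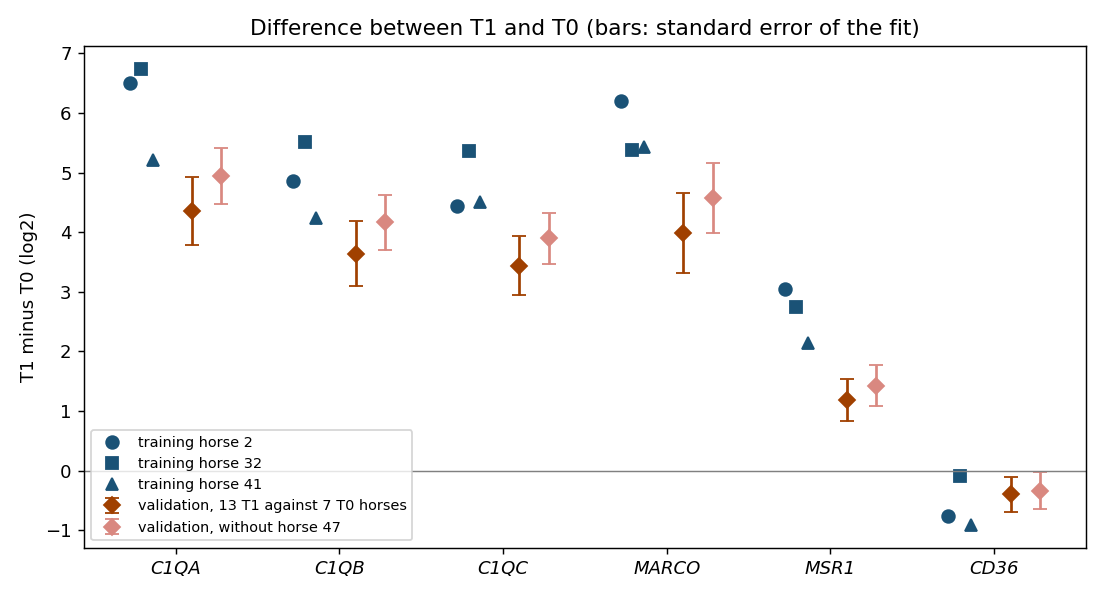
T1 minus T0 difference in log2 units (vertical axis) for the 6 genes (horizontal axis), with 1 symbol for each of the 3 training horses and diamonds for the validation set with and without horse 47, with bars of 1 standard error of the limma fit. The C1QA differences are at 6.15 in the training and 4.36 in the validation set, the MARCO points of the training horses rest on T0 signals not well above background, and CD36 is the only gene below 0.

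The levels of the 3 chains varied together between horses within T1, a comparison that the choice of the members did not use. Across the 13 validation horses at T1, Pearson's r was 0.991 between C1QB and C1QC, 0.936 between C1QA and C1QB and 0.936 between C1QA and C1QC, and Spearman's rho was 0.989, 0.951 and 0.945. In a two-sided permutation test with 100000 resamples, the Benjamini-Hochberg adjusted p over the 15 pairs of members was 0.00015 for each r, and 7.5e-05, 7.5e-05 and 0.0001 for the rhos. The unadjusted p of 1e-05 between C1QB and C1QC was the smallest that these resamples can give. Without the 2 horses farthest from the median of the first gene, r was 0.984, 0.924 and 0.933. The other 12 pairs did not pass, among them MARCO with the chains (r of 0.353 to 0.439, adjusted p of 0.223 to 0.292 by permutation, rho of 0.440 to 0.456, adjusted p of 0.200) and MSR1 with the chains (r of 0.264 to 0.440, adjusted p of 0.223 to 0.418, rho of 0.231 to 0.308, adjusted p of 0.384 to 0.481). CD36 was lower where the chains were higher, with r of -0.563, -0.558 and -0.576 to C1QA, C1QB and C1QC, and an adjusted p of 0.121 by permutation for each, and with rhos of -0.654, -0.577 and -0.599 (adjusted permutation p of 0.0666, 0.107 and 0.102). No scan day held more than 4 of the 13 horses, too few for a value within a day.

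Without horse 21, a choice made after seeing the data, 7 of the 15 pairs passed, the added pairs being MSR1 with C1QA, C1QB, C1QC and MARCO at r of 0.656, 0.604, 0.635 and 0.615 (adjusted permutation p of 0.0480 for 3 of them and 0.0493 for C1QB), while their rhos of 0.483 to 0.587 did not pass (adjusted permutation p of 0.151 to 0.190). These r fell to between 0.152 and 0.244 once the 2 horses farthest from the median of the first gene were left out, so that they rest on those horses. At T0 the chains also moved together in the 6 validation horses other than horse 47, with r of 0.956 between C1QA and C1QB and 0.908 between C1QB and C1QC (exact permutation adjusted p of 0.0417 each over 10 pairs), and 0.851 between C1QA and C1QC (exact adjusted p of 0.130). Their rhos of 0.829, 0.886 and 0.714 did not pass (exact adjusted p of 0.292, 0.292 and 0.454), and without the 2 farthest horses r was 0.833, 0.797 and 0.386. With horse 47 the 3 values of r were 0.990, 0.961 and 0.955 in the same order.

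**Figure D3:**
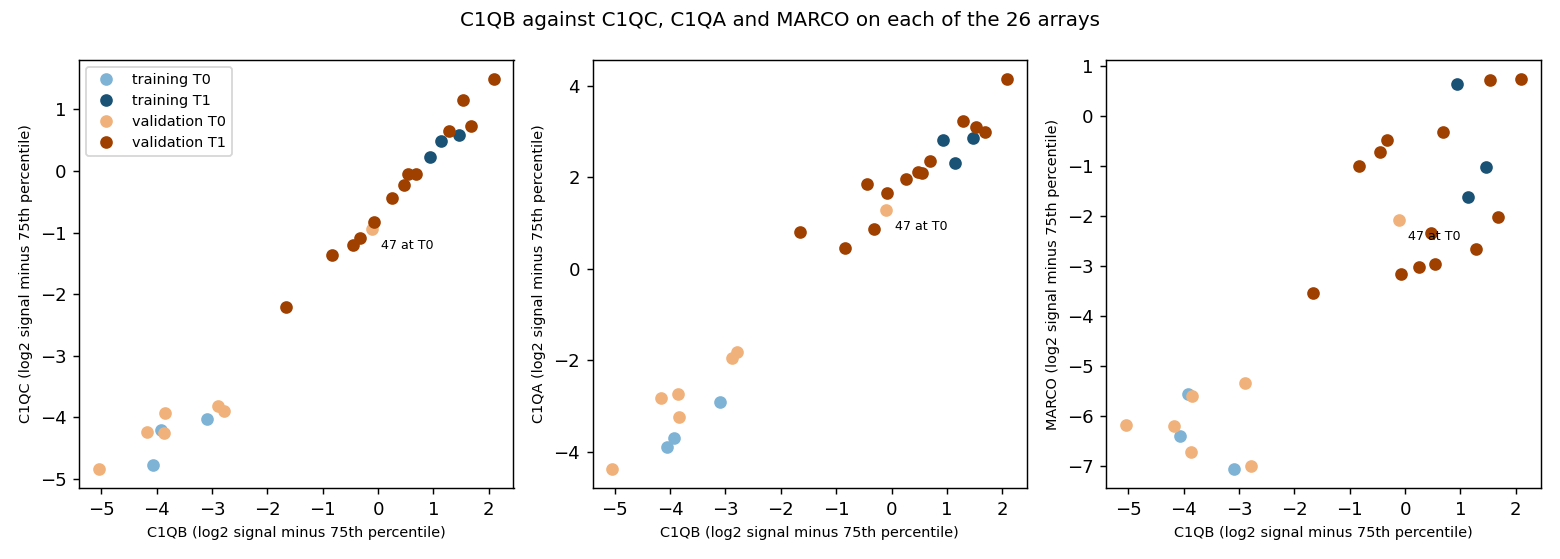
Levels (log2 units relative to the 75th percentile of the array) of C1QC, C1QA and MARCO (vertical axes) against C1QB (horizontal axis), with 1 point for each of the 26 arrays, coloured by group. C1QC and C1QA follow C1QB within the T1 horses, where r is 0.991 and 0.936 in the 13 validation horses, MARCO scatters more widely at r of 0.407, and horse 47 at T0 lies among the T1 points.

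The spread of the chains between validation horses at T1, with SDs of 1.06, 1.08 and 1.08 log2 for C1QA, C1QB and C1QC, was wide beside the median SD of 0.37 log2 over 13477 genes well above background on all 13 arrays, and lay at the 98.7 to 98.9 percentiles. At T0 without horse 47 the SDs were 0.93, 0.84 and 0.38 log2, at the 97.5, 95.9 and 54.4 percentiles. In the 3 training horses at T1 the SDs of the chains were 0.18 to 0.31 log2, close to the median of 0.29 over all genes, while that of MARCO was 1.17.

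The genes most like each member over the 26 arrays, by Pearson's r among 10370 named genes, are given as a description, since the arrays share the step from T0 to T1. For C1QA they were SIRPB2, a signal regulatory protein (0.963), RAB31, a small GTPase of vesicle traffic (0.949), and NR2E1, an orphan nuclear receptor (0.947). SIRPB2 and RAB31 were also among the 3 most like C1QB and C1QC, at 0.952 to 0.961, together with TGM3, a transglutaminase (0.940 and 0.953). Within the 13 T1 validation horses, r of these genes with the chains was lower, at 0.636 to 0.792. For MARCO they were TGM3 (0.940), the tyrosine kinase TEC (0.939) and the transcriptional repressor PRDM1 (0.934). For MSR1 they were the mitochondrial iron carrier SLC25A28 (0.874), the ADP receptor P2RY13 (0.854) and the vault protein MVP (0.847). For CD36 they were SLFN5, a Schlafen family protein (0.770), CROT, the peroxisomal carnitine octanoyltransferase (0.760), and PGM2L1, which makes glucose 1,6-bisphosphate (0.752), and within the T1 horses their r was 0.850 to 0.874.

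C1QB, C1QC and C1QA are neighbours in this order on chromosome 2 in the RefSeq gene table (assembly TB-T2T), used here for the order of genes only. Of the 4 protein-coding genes on either side, 3 could be tested in the validation set and none passed the threshold, which 44.2% of all 17402 genes tested passed. KDM1A, a histone demethylase, differed by -0.75 ± 0.44 log2 (limma, adjusted p = 0.175), EPHA8, an ephrin receptor, by -0.52 ± 0.35 (limma, adjusted p = 0.241) and CDC42, a small GTPase of cell polarity, by 0.27 ± 0.13 (limma, adjusted p = 0.0981). In the training set their differences were -0.76, 0.23 and 0.38 log2, with limma adjusted p of 0.212, 0.709 and 0.454.

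Whether the members differed between the sets was tested with limma over all genes. The members were chosen by their levels at both times in both sets, so that nothing is read from their p-values between the sets. No member was called for the difference between the T1 minus T0 changes, nor was any of the 19408 genes tested (0% called, 160 at an unadjusted p under 0.05). The validation change minus the training change was -1.80 log2 for C1QA (95% interval -4.09 to 0.49), -1.23 for C1QB (-3.40 to 0.95), -1.33 for C1QC (-3.29 to 0.62), -1.46 for MSR1 (-2.90 to -0.02, limma unadjusted p = 0.0475, adjusted p = 1) and 0.19 for CD36 (-0.99 to 1.37). No value is given for MARCO, whose training T0 signals were not well above background. Without horse 47 the values were -0.71 for C1QB and -0.87 for C1QC. At T0 the validation minus training difference of the members other than MARCO lay between 0.41 log2 (CD36) and 1.26 log2 (C1QA), with C1QB at 0.45 and C1QC at 0.63. Without horse 47 it was 0.68 for C1QA, -0.07 for C1QB and 0.17 for C1QC. At T1 it lay between -0.93 log2 (MARCO) and 0.60 log2 (CD36), where the median over all genes was -0.12. No member passed in either comparison (limma adjusted p of 1 at T0 and 0.866 at T1, 0% of 17883 and of 18626 genes called, with 236 and 711 at an unadjusted p under 0.05). These intervals are wide, and do not show that the sets responded alike. Females and geldings of the validation set were compared with time in the fit. The female minus gelding difference lay between -0.73 log2 (MARCO, 95% interval -2.20 to 0.74) and -0.18 log2 (CD36, -0.84 to 0.48), and no member passed (limma adjusted p of 0.624 to 0.918), against 0.0402% of 17402 genes. Without horse 47 the difference was -0.06 log2 for C1QA, -0.13 for C1QB, -0.21 for C1QC and -0.31 for MARCO, in place of -0.49, -0.51, -0.54 and -0.73, and again no member passed (limma). The MARCO values between the sexes rest in part on T0 signals, which were well above background in only 3 of the 7 validation horses.

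Genes that mark blood cells moved in the same comparison. Of the 7 neutrophil markers tested, 6 rose in the validation set (limma), where 3528 of all 17402 genes tested rose and 4164 fell (44.2% called). Among the 6 were the chemokine receptor CXCR2, by 1.05 ± 0.23 log2 (limma, adjusted p = 0.000939), and CSF3R, the receptor of granulocyte colony-stimulating factor, by 0.76 ± 0.31 (limma, adjusted p = 0.0490). The mean level of the 7 neutrophil markers ran from 3.28 to 3.87 in the T0 horses other than horse 47, was 5.56 in horse 47, and ran from 5.24 to 6.38 in the T1 horses. All 8 T cell markers fell, with CD3D at -0.95 and CD3E at -1.71 log2, as did 5 of 6 B cell markers, with CD79A at -1.67 and MS4A1 at -0.47, and their scores ran from 0.83 to 2.10 and -0.58 to 0.87 at T0 and from -0.62 to 1.18 and -2.36 to -0.09 at T1. Of the 6 NK cell markers 4 fell, NKG7 by 1.98 log2 among them, and 1 rose, the receptor NCR1, by 1.34. The monocyte list did not move as a whole, with 2 of 7 markers higher and 2 lower, and its score ran from 2.18 to 2.85 at T0 and from 2.39 to 3.08 at T1. CD14, the LPS co-receptor that defines monocytes, rose by 1.61 ± 0.27 log2 (limma, adjusted p = 8.96e-05), whereas CSF1R, the receptor of macrophage colony-stimulating factor, differed by 0.07 ± 0.18 (limma, adjusted p = 0.781). Of the 8 macrophage and dendritic cell markers 2 rose and 1 fell, and the mannose receptor MRC1, measured above background on 14 of 26 arrays, was the one that fell. The kinase FLT3 of dendritic cells differed by -0.03 ± 0.23 (limma, adjusted p = 0.940), and VSIG4 and MERTK, which rose, also stand in the lists below. None of the 3 platelet markers tested passed, ITGA2B among them at 0.07 log2, and 1 of 4 erythroid markers rose, ALAS2 not passing at 0.49 log2. The one that rose was HBB, the beta chain of haemoglobin, by 2.25 ± 0.69 log2 (limma, adjusted p = 0.0115) in the validation and by 2.51 ± 0.63 (adjusted p = 0.0393) in the training set. GP9 was not matched to a probe, and the red cell marker SLC4A1 was not well above background on any array. The part of these shifts in the members' T1 against T0 differences was not tested.

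Across the 13 validation horses at T1, the members were set against the monocyte, neutrophil, platelet and erythroid scores. None of the 24 relations passed the two-sided permutation test after Benjamini-Hochberg adjustment, and 2 had an unadjusted p under 0.05. With normexp background correction and with the deposited log2 table MARCO passed with the neutrophil score (r of 0.787, adjusted permutation p of 0.0343 and 0.0331), and with the mean of a gene's probes MSR1 passed with the monocyte score (r of 0.785, adjusted permutation p of 0.0410). The C1q chains and MARCO showed no clear relation to the monocyte score, with r of 0.03, -0.10, -0.06 and -0.05 (C1QA, C1QB, C1QC and MARCO, adjusted permutation p of 0.968 each). MSR1 had an r of 0.764 and a rho of 0.560 with the monocyte score (permutation p = 0.00348, adjusted 0.0835, adjusted 0.616 for rho), and r fell to 0.237 without the 2 horses farthest from the median score, so that the relation rests on them. CD36 had an r of 0.508 with the monocyte score (permutation p = 0.0748, adjusted 0.359) and of -0.616 with the neutrophil score (permutation p = 0.0265, adjusted 0.318, rho -0.374, adjusted 0.766). The neutrophil score had r of 0.351 to 0.523 with the chains and 0.403 with MARCO, of which none passed (adjusted permutation p of 0.359 to 0.613).

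**Figure D4:**
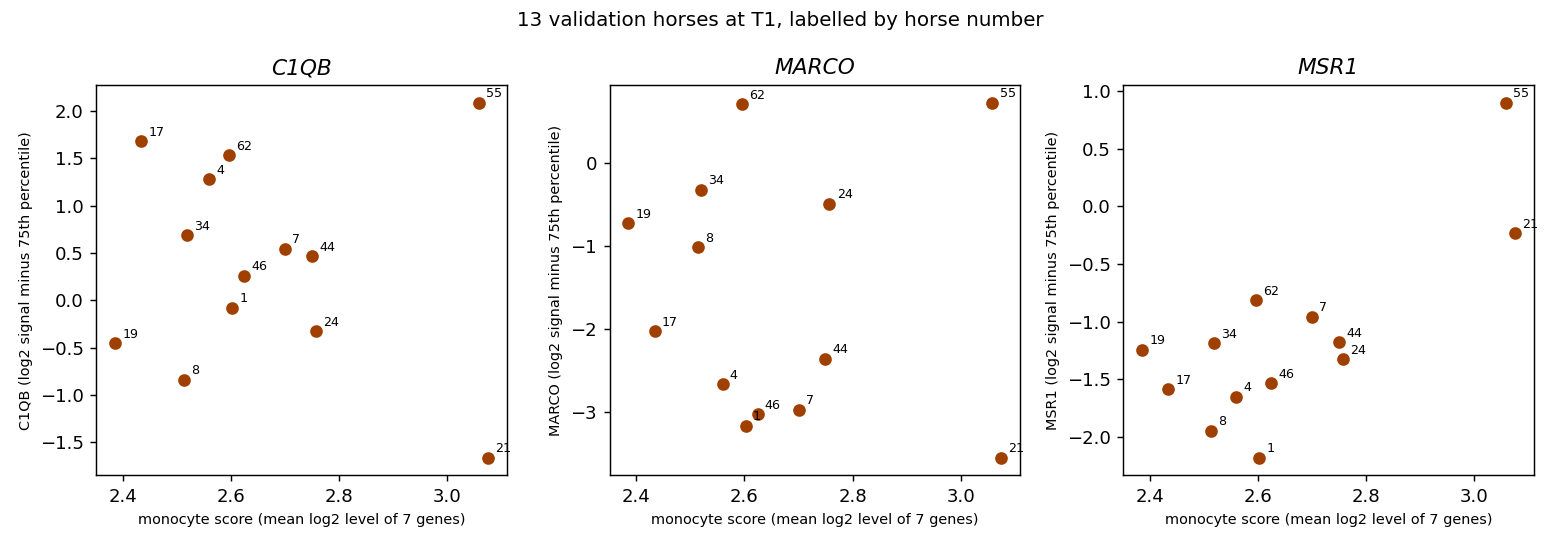
Levels of C1QB, MARCO and MSR1 (log2 units relative to the 75th percentile of the array, vertical axes) against the monocyte score (mean log2 level of 7 markers, horizontal axis) in the 13 validation horses at T1, labelled by horse number. Horses 21 and 55 have the highest monocyte scores and stand at opposite ends for C1QB and MARCO, while both are high for MSR1.

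Other genes of complement and of scavenging were read from 7 lists. Of the 62 list genes tested in the validation set, 25 rose and 7 fell at T1 (limma), and 27 rose and 7 fell without horse 47. Of all 17402 genes tested in this set, 3528 rose and 4164 fell (44.2% called), to be set beside the counts of each list below. In the training set 16 of 64 list genes rose and 1 fell, against 1115 higher and 731 lower of all 17489 genes (10.6% called). All 17 called list genes of the training set also passed in the validation set, in the same direction. How many of all genes called in the training set did so is not given here, and nothing is read from this overlap. In the validation set 24 of the 32 called genes passed in every alternative setting that could test them, as did 0 of the 17 in the training set, where the setting with no filter on dim probes called none of them (limma). The same shares over all called genes are not given here.

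The components of the classical, lectin and alternative pathways were divided. C1R and C1S, the proteases that C1q activates, differed by 0.22 ± 0.29 and 0.18 ± 0.24 log2 in the validation set (limma, adjusted p = 0.563 for both). Of the 6 tested in this list 2 rose and 1 fell, namely C3, the central component, by 0.33 ± 0.12 log2 (limma, adjusted p = 0.0351), properdin (CFP), the stabiliser of the alternative convertase, by 0.45 ± 0.15 (adjusted p = 0.0181), and factor B (CFB) by -0.68 ± 0.25 (adjusted p = 0.0301). None of the 6 passed in the training set, and the list's median difference was 0.24 log2 in the validation set, beside -0.07 over all genes. Of 12 alternative settings, 3 lost the calls of C3 and of CFP and 4 that of CFB, and the fit without horse 47 was among those that lost C3.

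Of the regulators of complement, 5 of 6 rose in the validation set and 4 of 6 in the training set (limma), with a median of 1.42 and 1.61 log2. Clusterin (CLU), a chaperone that also holds back the terminal complex, rose by 3.78 ± 0.92 log2 (adjusted p = 0.00228) in the validation and by 4.74 ± 0.67 (adjusted p = 0.00498) in the training set. VSIG4, a complement receptor of macrophages, rose by 2.63 ± 0.66 log2 (adjusted p = 0.00288) and by 2.20 ± 0.35 (adjusted p = 0.00795), and its validation call was lost with the scan day in the fit. The chains of C4b-binding protein, C4BPA and C4BPB, rose by 1.15 ± 0.20 and 1.69 ± 0.27 log2 in the validation set and by 1.45 ± 0.34 and 1.77 ± 0.38 in the training set.

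Of the receptors of C1q and of complement fragments, 5 of 8 rose and 1 fell in the validation set (limma), and 3 of 9 rose in the training set. ITGAM and ITGB2, the chains of complement receptor 3, rose by 1.68 ± 0.31 and 1.22 ± 0.23 log2 in the validation set (adjusted p = 0.000237 and 0.000337) and by 2.24 ± 0.45 and 1.20 ± 0.32 in the training set (adjusted p = 0.0194 and 0.0453). The C5a receptors C5AR1 and C5AR2 rose by 1.26 ± 0.42 and 1.13 ± 0.16 log2 in the validation set, of which C5AR1 passed in both sets, though its validation call was lost with the scan day in the fit. The training calls of C5AR1 and ITGB2 were each lost in 7 of 11 alternative settings. C1QBP, a mitochondrial protein that binds the globular heads of C1q, was the one that fell, by 0.85 ± 0.16 log2 (limma, adjusted p = 0.00028). CD93 of the same list rose by 0.77 ± 0.16 log2 (limma, adjusted p = 0.000683), and CALR differed by -0.07 ± 0.21 (limma, adjusted p = 0.824).

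The other scavenger receptors were divided, with 2 of 13 higher, 2 lower and 9 not passing in the validation set (limma). SCARB2, the lysosomal relative of CD36, rose by 1.40 ± 0.21 log2 (adjusted p = 3.93e-05) and by 1.70 ± 0.38 in the training set (adjusted p = 0.0281), and SCARB1, the HDL receptor of the same family, fell by 0.96 ± 0.27 log2 (adjusted p = 0.00632). AGER, the receptor of glycated proteins, rose by 1.04 ± 0.42 log2 (limma, adjusted p = 0.0491), a call that 6 of 11 alternative settings lost, among them the fit without horse 34. Its probe was well above background on only 3 of the 7 validation T0 arrays, and its training call was lost in 7 of 10 alternative settings. MRC1 fell by 1.17 ± 0.38 (limma, adjusted p = 0.0164), a call lost with normexp correction and with the deposited series values.

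Of 11 genes for the clearance of dying cells, 2 rose and 1 fell in the validation set, and 2 rose in the training set (limma). MERTK, a receptor kinase that takes up apoptotic cells, rose by 2.23 ± 0.32 log2 (adjusted p = 2.15e-05) and 2.40 ± 0.35 (adjusted p = 0.00535), and THBS1, thrombospondin 1, a ligand of CD36, by 2.02 ± 0.23 (adjusted p = 3.26e-06) and 2.34 ± 0.35 (adjusted p = 0.00604). GAS6, a bridging ligand of MERTK, fell by 0.77 ± 0.23 log2 in the validation set (adjusted p = 0.0109).

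Among 11 genes of lipid handling with CD36, 5 rose and 2 fell in the validation set (limma). CD9, a tetraspanin partner of CD36, rose by 1.36 ± 0.30 log2, ACSL1, which activates fatty acids, by 1.26 ± 0.25, and the kinase LYN by 1.15 ± 0.17, whereas the kinase FYN fell by 1.19 ± 0.17. CD9, LYN and FYN passed in the same direction in the training set. Of the 7 monocyte and macrophage transcription factors tested, 4 rose in the validation set and 3 of 8 in the training set. CEBPB rose by 2.37 ± 0.27 log2 (adjusted p = 3.52e-06), KLF4 by 1.52 ± 0.26 (adjusted p = 0.000117) and SPI1 by 0.84 ± 0.22 (adjusted p = 0.00357), and MAF differed by -0.02 ± 0.17 (adjusted p = 0.936).

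**Figure D5:**
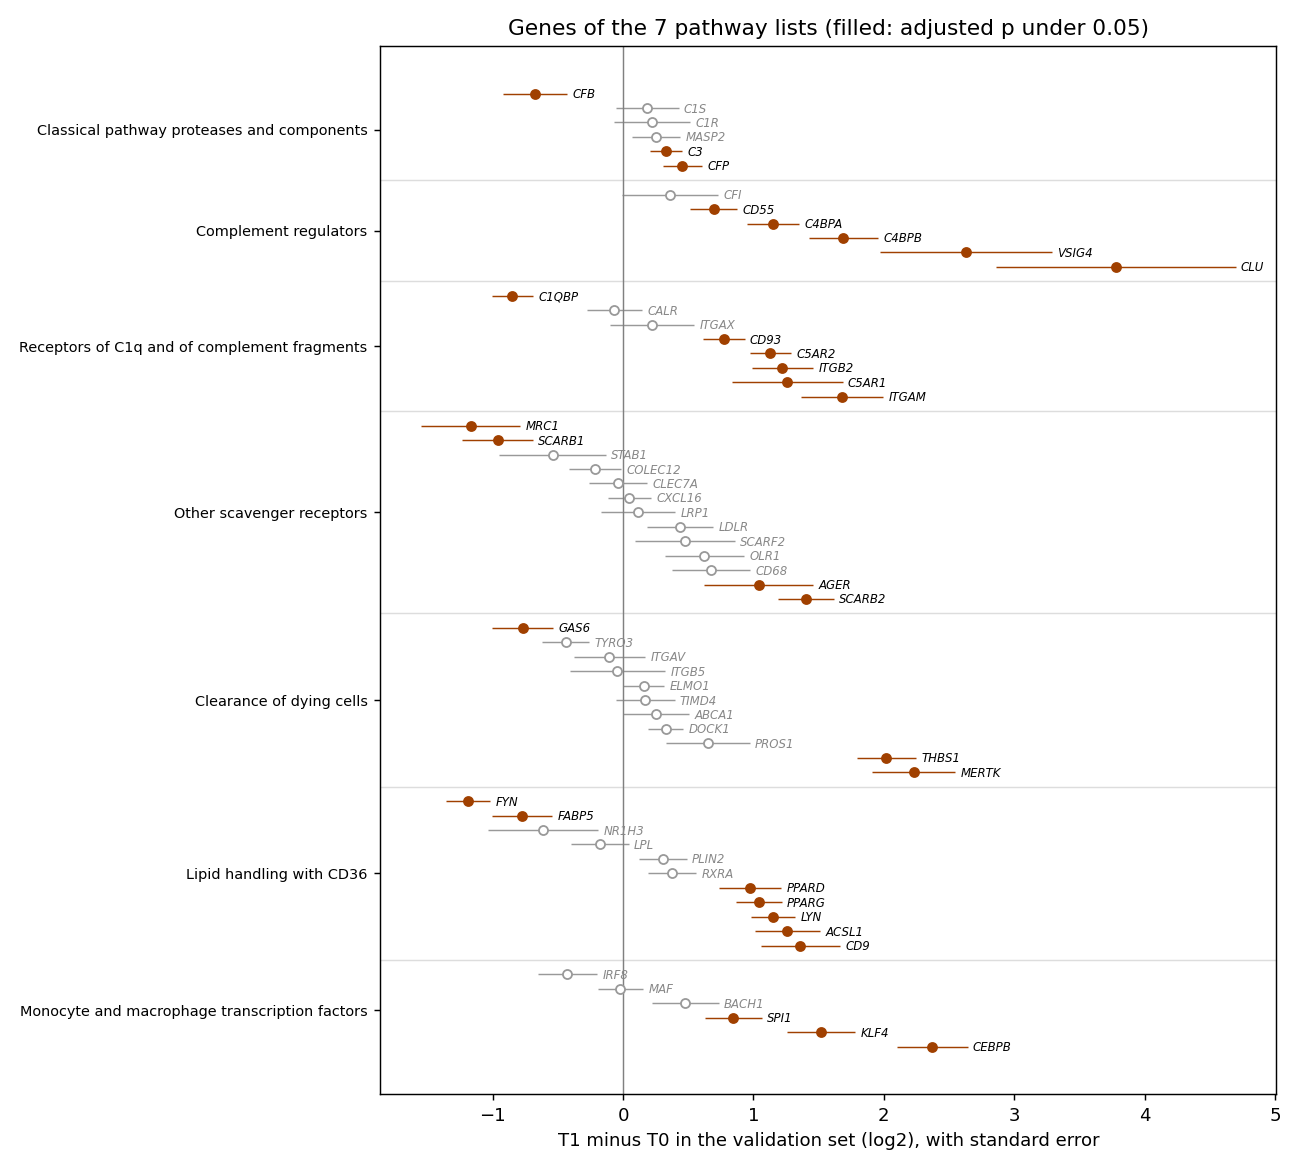
T1 minus T0 difference in the validation set in log2 units (horizontal axis), with bars of 1 standard error, for the tested genes of 7 lists that are reported here (vertical axis), filled where the limma adjusted p is under 0.05. CLU, at 3.78, VSIG4, CEBPB and MERTK lie farthest to the right, and MRC1 and FYN farthest to the left.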

How the data were processed

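Cy3-labelled cRNA of 26 whole-blood samples was hybridised to custom equine Agilent arrays. The deposited intensity values were made with Agilent Feature Extraction 10.7.3.1, which, per the file headers, subtracted background and detrended each array, without normalization between arrays. Per the labels' processing notes the submitters used limma. The authors also deposited a table of log2 values of the same arrays, which ranked the probes as their median signal less local background does (Spearman 1 on each array) and had column medians of 7.09 to 7.10. The normalization steps behind it are not given in the sources used here.

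The processed intensity was set to log2, spots with outlier flags were left out, repeated spots of a probe were averaged, each array was shifted by its own 75th percentile (8.70 to 9.73 log2), and the brightest of the 43384 probes was kept for each of 24415 gene names. Subtraction of background leaves dim probes imprecise, and a probe had to be well above background on at least 3 training or 7 validation arrays of a comparison (3 for the others). Tests were run with limma 3.58.1 in R 4.3.3 (lmFit and eBayes) over all genes, with Benjamini-Hochberg adjustment at 0.05, horse as a block in the training set (the labels give the same animals at T0 and T1, and same-numbered deviations correlated at -0.01, 0.21 and 0.19), and horse as a random block for the difference between the sets. In the validation set p-values weigh the difference between the groups against the spread between horses. Permutation tests were computed with numpy 2.4.6, on ranks from scipy 1.17.1 for Spearman's rho. The limma steps were tested on simulated data.

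The members, 7 pathway lists and 8 marker lists were chosen with earlier results of these data known. Symbols came from the array, its annotation text and the RefSeq gene table, and 9808 gene names had none. The text names, per list, up to 4 called genes with the largest validation difference, genes called in both sets, defining markers and the 3 genes most like each member. C1R, C1S, C1QBP, CD93, CALR and MAF were added after their values were seen. A called gene of the lists is counted but not reported here. Alternatives were normexp correction (offset 50) with quantile normalization, quantile normalization alone, the deposited log2 table, the mean of a gene's probes, other filters, scan day, slide and sex, a joint fit, no horse block and left-out horses. The number of arrays limits the precision.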

Additional observations from a re-analysis of the deposited data

Results flagged for a closer look

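The T0 sample of validation horse 47 stood past Dixon's 95% limit, set against the other 6 T0 horses, for 2 members. It was also the highest T0 sample for C1QA (1.29 log2, next -1.81) and C1QB (-0.11, next -2.78), which were not flagged. Its C1QC level was -0.94 log2 against -3.81 in the next highest T0 horse, a gap of 0.737 of the whole range of the group. Its MARCO level was -2.08 log2 against -5.34, a gap of 0.661 of the range. Dixon's 95% limit was used for both, and chance alone passes it now and then, so that single groups past it are no result. Both gaps come from the same array. Over all genes tested in the validation set, that array correlated at 0.988 with the T1 mean and at 0.969 with the mean of the other T0 horses. In the same sample the neutrophil score was 5.56 and the monocyte score 2.43, and the origin of these levels was not tested.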

How the results depend on the processing

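No T1 minus T0 difference of a member or of a called pathway gene changed sign under the alternatives. With normexp correction and with the deposited log2 table the members' differences shrank, to 2.27 and 2.36 log2 for C1QB, 2.09 and 2.18 for C1QC and 1.68 and 1.74 for MARCO in the validation set, and to 4.69 and 4.93 for C1QA, 3.23 and 3.38 for C1QB, 2.94 and 3.08 for C1QC, 2.47 and 2.56 for MARCO and 1.76 and 1.87 for MSR1 in the training set. Here a probe's background is handled differently and MARCO was dim at T0, and the cause was not tested. Both settings, and the mean of a gene's probes, gave 1 relation with a cell score past the threshold in place of 0, MARCO with neutrophils (r of 0.787, adjusted permutation p of 0.0343 and 0.0331) for the former and MSR1 with monocytes (r of 0.785, adjusted p of 0.0410) for the latter. Pairs of members past the threshold numbered 3 without horse 34 and 7 without horse 21 at T1, the latter chosen after seeing the data. The training fit, with 3 horses, was the least stable: limma called 1846 genes (1115 higher), 2920 with probes well above background on every array, 65 with no filter and 289 to 2819 without 1 horse, and 1142 of 2372 were higher with normexp correction. Its pathway calls, 17 in all, were 0 with no filter (limma, all 24414 genes tested, 4403 at an unadjusted p under 0.05) and 5 without horse 2 to 22 without horse 41. Without the replicate block by horse it called 1799 genes and 17 pathway genes. MARCO had no value without a training horse or with the filter on every array, since its T0 probe was dim. Pathway calls in the validation set ran from 28 to 35. Genes called by limma between the sexes, 7 in all, ran from 4 to 13, and no member was among those called between sexes or sets under any alternative. The counts at an unadjusted p under 0.05 ran from 49 to 487 for the difference of the changes and from 168 to 752 between the sets at T0, where the fit without horse 2 called 1 gene. Validation time and animal cannot be told apart, and dim signals limit MARCO.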
